A study of Mus musculus with 10 samples.

Results

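Cholesterol synthesis and sterol control genes are described here in the lactating mammary gland of BALB/c mice, an inbred strain. The 29 genes were taken by symbol: 19 enzymes of the pathway from acetoacetyl-CoA to cholesterol, 4 genes of the sterol sensor (Srebf2, Scap, Insig1 and Insig2), the sterol carrier gene Stard4, the ubiquitin ligase gene Mylip, and 4 genes of the LXR arm (Nr1h2, Nr1h3, Abca1 and Abcg1). All 29 symbols matched 1 row each of the table of 35275 genes. At lactation day 3 the left and right glands of the 4th pair were given, in alternation and through the teat, lipopolysaccharide (LPS, the endotoxin of Escherichia coli, 50 µL at 0.4 mg/mL) or sterile PBS (50 µL), with collection after 12 h. Sequenced libraries of bulk RNA number 5 for LPS and 5 for PBS. The labels give no genotype or transgene and no gland without an injection, and do not say which libraries came from 1 mouse. They give n = 9 without saying what it counts, so libraries may share a mouse, and a p-value measures the spread between these glands only.

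Cells make cholesterol from acetyl-CoA through mevalonate and squalene. When membrane sterol is low, SCAP carries the transcription factor SREBP2 (gene Srebf2) from the endoplasmic reticulum to be cut, and SREBP2 then switches on the genes of the pathway and Insig1, whose protein holds SCAP back once sterol returns. When sterol and oxysterols are plentiful, the nuclear receptors LXR alpha (Nr1h3) and LXR beta (Nr1h2) switch on Abca1 and Abcg1, which export cholesterol, and Mylip, whose product degrades lipoprotein receptors. In the lactating gland the alveolar epithelium makes cholesterol for the membrane of milk fat globules, while LXR targets are also prominent in macrophages and fat cells.

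The upstream DNA of Hmgcs1, Hsd17b7, Srebf2 and Abca1 is shown, and a link between these sequences and the values below was not tested. Sequences are the 250 bases before the RefSeq start site in build GRCm38.p6, read 5′ to 3′ on the gene's strand. Capitals mark matches, on either strand, to the core of the sterol regulatory element (TCACCCCA), to the CCAAT box (CCAAT, bound by NF-Y) and, by its name alone, to the direct repeat of the LXR response element. In the sequences shown no match overlapped another.
Hmgcs1 (chr13:119690101-119690350, plus strand): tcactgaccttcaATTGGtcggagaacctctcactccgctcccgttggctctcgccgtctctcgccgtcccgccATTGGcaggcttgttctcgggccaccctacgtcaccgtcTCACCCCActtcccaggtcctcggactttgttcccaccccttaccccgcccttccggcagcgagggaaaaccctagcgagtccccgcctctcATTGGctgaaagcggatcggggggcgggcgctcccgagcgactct
Hsd17b7 (chr1:169969206-169969455, minus strand): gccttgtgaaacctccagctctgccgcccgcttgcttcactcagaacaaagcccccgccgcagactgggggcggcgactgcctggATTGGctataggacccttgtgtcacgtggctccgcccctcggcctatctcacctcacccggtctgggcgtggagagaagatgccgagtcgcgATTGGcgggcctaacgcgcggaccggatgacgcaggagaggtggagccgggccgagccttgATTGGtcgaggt
Srebf2 (chr15:82147019-82147268, plus strand): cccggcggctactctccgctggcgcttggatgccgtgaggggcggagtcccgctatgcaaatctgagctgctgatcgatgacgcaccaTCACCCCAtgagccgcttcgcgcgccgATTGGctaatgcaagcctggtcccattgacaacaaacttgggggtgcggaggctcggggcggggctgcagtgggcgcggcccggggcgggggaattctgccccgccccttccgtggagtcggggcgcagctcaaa
Abca1 (chr4:53159896-53160145, minus strand): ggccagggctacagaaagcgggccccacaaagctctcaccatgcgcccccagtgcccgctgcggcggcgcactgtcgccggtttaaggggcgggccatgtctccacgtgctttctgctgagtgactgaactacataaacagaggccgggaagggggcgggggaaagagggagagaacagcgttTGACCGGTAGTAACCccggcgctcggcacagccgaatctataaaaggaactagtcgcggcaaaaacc

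RefSeq promoters were matched by symbol for 24 of the 29 genes. The sterol element core was found in Hmgcs1 and Srebf2, 2 of 24 genes, and in 1.34% of all 32851 promoters of this length. A CCAAT box stood in at least 1 promoter of 15 of the 16 synthesis genes matched and of 4 of the 8 other genes matched, against 33.8% of all promoters. Genes with up to 3 promoters counted if any of them matched, so these gene counts and the share of single promoters differ in unit. In a single promoter Mvk carried 5 CCAAT boxes, and Hmgcs1, Msmo1, Hsd17b7, Insig2 and Mylip each carried 3. The LXR repeat was found in Abca1 alone among the 24, and in 0.177% of all promoters. These are matches of letters in a window and show no binding.

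Depth was 15734303 to 18869545 counted reads per library. Values are FPKM, fragments scaled to gene length and to the counted reads of the library, and the tests ran on log2(FPKM + 1) with limma, across the 11414 genes with at least 1 FPKM in at least 5 libraries. Over all of these genes 300 were called higher and 69 lower in LPS glands (2.63% and 0.605%, 3.23% called in all). That split was 233 to 145 with quantile normalization and 128 to 352 when each library was rescaled to its FPKM outside the milk proteins. B and T cell transcripts were high in PBS replicates 2 and 4 and LPS replicates 2 and 3 (summed FPKM of 8 markers 6.76 to 57.3, against 0.556 to 2.01 in the other 6 glands).

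Most synthesis genes had higher FPKM in LPS than in PBS glands, but none passed the reported test. Of the 19 synthesis genes, all of which passed the filter on low values, 17 had a log2 change above 0, where 61.4% of all genes tested did. The change ran from -0.14 to 0.76 with a median of 0.47, against a median of 0.05 over all genes tested. By limma 0 of the 19 were called, against 3.23% of all genes, while an unadjusted p below 0.05 was reached by 10 in the higher and 0 in the lower direction (all genes: 12.4% and 4.07%). On reads recovered from the FPKM, edgeR called 0 of the 19 higher (2.67% of all genes) and DESeq2 called 7 (4.98% of all genes), which were Hmgcs1, Fdft1, Cyp51, Msmo1, Nsdhl, Hsd17b7 and Sc5d. The count above 0 was 16 with median-of-ratios scaling, 16 with quantile normalization and 14 with FPKM rescaled outside milk proteins. That last scaling moved the median log2 change of all genes tested from 0.05 to -0.13 and that of the synthesis genes to 0.27. Under it an unadjusted limma p below 0.05 was reached by 4 synthesis genes in the higher and 2 in the lower direction (all genes: 4.05% and 20.7%). In bulk RNA more cells of a type and more RNA per cell cannot be told apart.

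**Figure D1:**
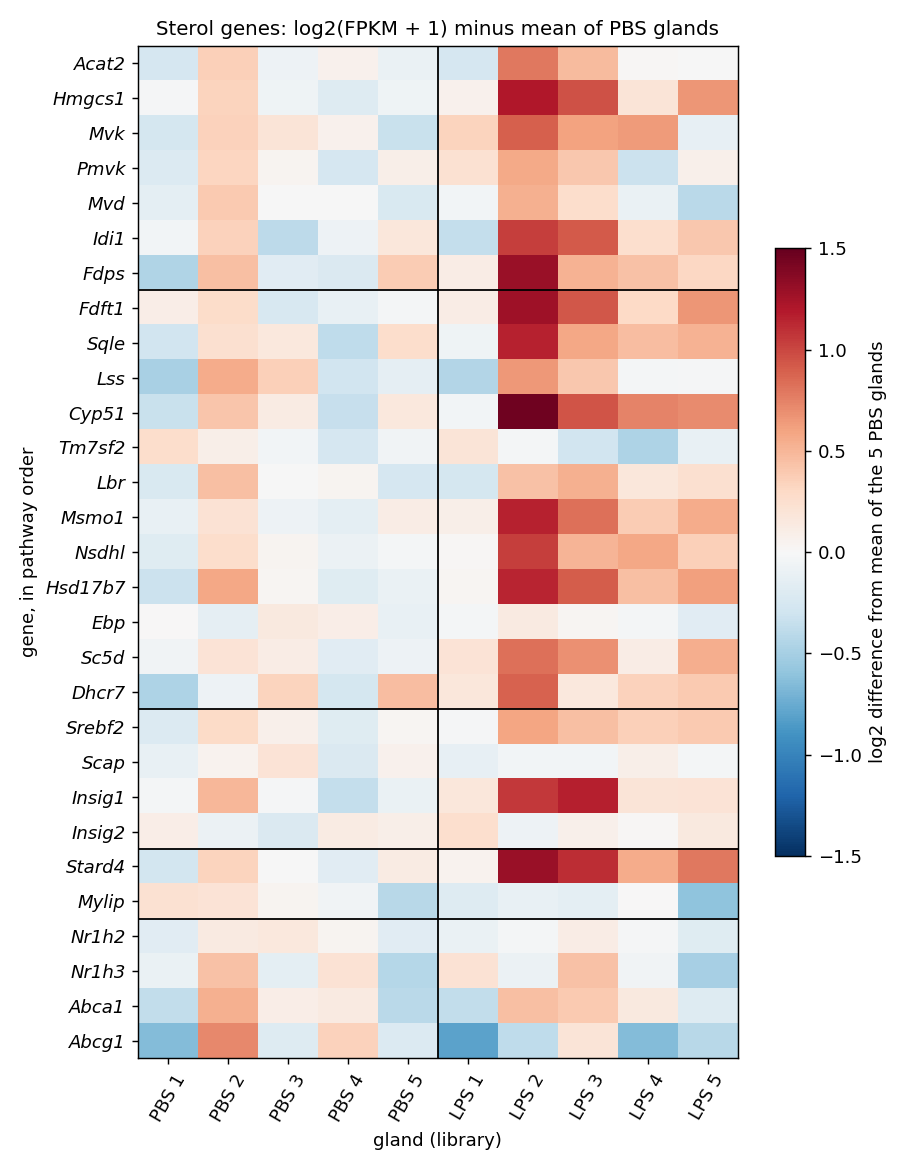
Each cell is log2(FPKM + 1) of 1 gene (29 rows, in pathway order) in 1 gland (10 columns) minus the mean of the 5 PBS glands for that gene. Lines separate early synthesis, late synthesis, the SREBP control genes, Stard4 with Mylip, and the LXR and efflux genes. LPS replicate 2 held the highest value of all glands for 16 of the 19 synthesis genes.

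The early enzymes lead from acetoacetyl-CoA to farnesyl diphosphate. Hmgcs1, which condenses acetoacetyl-CoA with acetyl-CoA to HMG-CoA, was at 17.7, 22.8, 17.1, 15.5 and 17.0 FPKM in PBS replicates 1 to 5 and at 18.7, 42.5, 35.5, 20.6 and 28.7 FPKM in LPS replicates 1 to 5. LPS replicates 2, 3 and 5 lay above every PBS gland, and LPS replicates 1 and 4 lay within the PBS range. Its mean was 18.0 ± 2.80 FPKM in PBS and 29.2 ± 9.99 FPKM in LPS glands (SD, n = 5 each), a log2 change of 0.61 ± 0.20 (SE) with a limma adjusted p of 0.123. DESeq2 gave an adjusted p of 0.0165 and edgeR 0.0729. The authors' deposited table lists it with a log2 fold change of 0.548 and an adjusted p of 0.0145.

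Fdps, which joins isoprene units into farnesyl diphosphate, had the highest mean FPKM of the 19 enzymes in PBS glands. It was at 32.9 ± 9.43 FPKM in PBS and 48.8 ± 17.8 FPKM in LPS glands (limma adjusted p = 0.246), and LPS replicate 2 alone was at 79.7 FPKM. Mvk, the mevalonate kinase, was at 4.62 ± 1.12 and 6.88 ± 1.97 FPKM (adjusted p = 0.224), and Idi1, which isomerizes the isoprene unit, at 5.79 ± 1.29 and 8.72 ± 3.50 FPKM (adjusted p = 0.369). The other early enzymes lay closer to their PBS values: the log2 change was 0.20 for Acat2 (acetoacetyl-CoA thiolase), 0.19 for Pmvk (phosphomevalonate kinase) and 0.05 for Mvd, which decarboxylates mevalonate diphosphate. Their 95% intervals reached from -0.20 to 0.61, from -0.16 to 0.54 and from -0.31 to 0.41. Acat2 shares sequence with Acat3, so reads could have been split between them. With FPKM rescaled outside milk proteins the log2 change of Mvd was -0.15 and that of Pmvk -0.01.

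**Figure D2:**
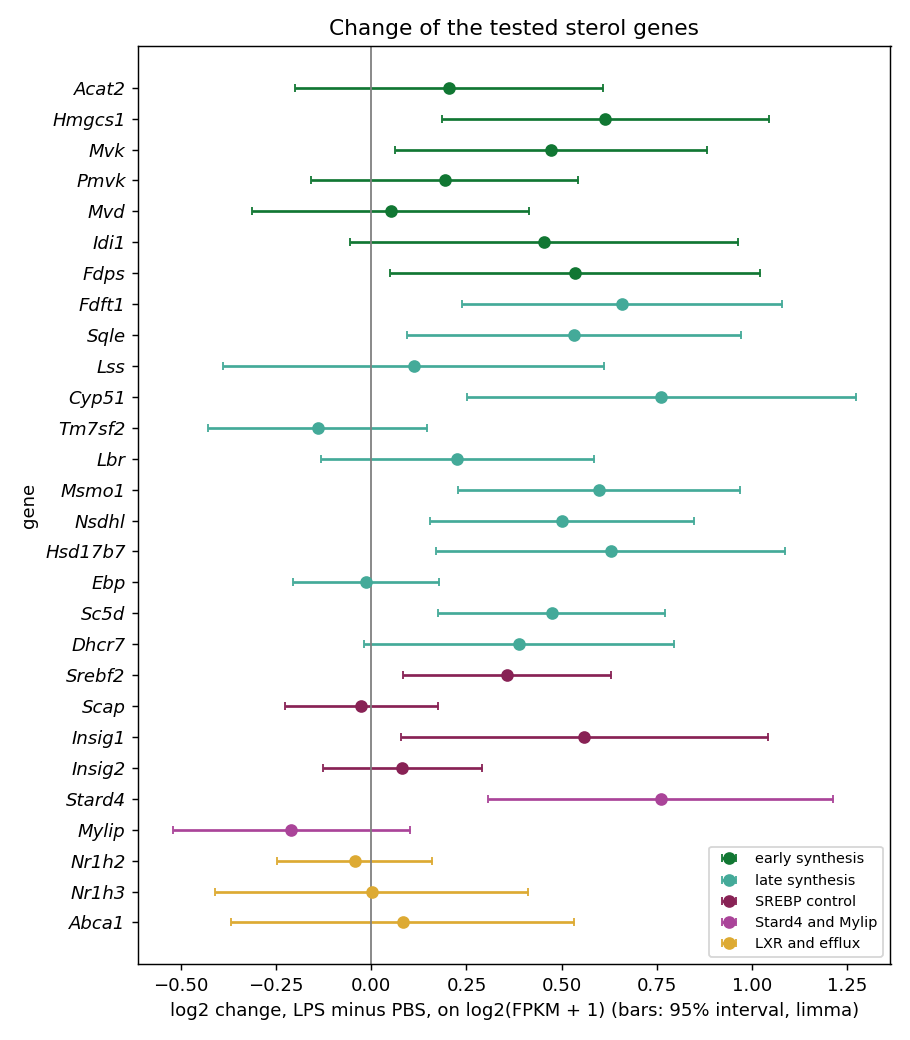
Points are log2 changes on log2(FPKM + 1), LPS minus PBS, with 95% intervals from limma, for the 28 genes that passed the filter, coloured by role. The synthesis genes spread from -0.14 to 0.76, and the 3 LXR and efflux genes shown lie between -0.04 and 0.08.

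The late enzymes lead from farnesyl diphosphate to cholesterol. Cyp51, which removes a methyl group from lanosterol, had the largest log2 change of the 19 (0.76 ± 0.24, limma adjusted p = 0.108). It was at 7.16, 12.7, 10.2, 7.10 and 10.5 FPKM in PBS replicates 1 to 5 and at 9.03, 27.3, 18.8, 16.2 and 15.9 FPKM in LPS replicates 1 to 5. LPS replicates 2 to 5 all lay above the PBS glands, and LPS replicate 1 lay within their range. Fdft1, the squalene synthase, followed with 7.97 ± 1.24 FPKM in PBS and 13.7 ± 4.79 FPKM in LPS glands (log2 change 0.66 ± 0.19, limma adjusted p = 0.0899). Its exons share 774 bases with those of Ctsb on the other strand, at 320.0 ± 24.0 FPKM in PBS and 282.4 ± 25.1 FPKM in LPS glands. The strand setting of the counting is not given in the sources used here, so reads of both genes there cannot be told apart. Cyp51 shares 166 exon bases with Akap9 in the same way.

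Sqle, the squalene epoxidase, was at 8.44, 12.7, 11.9, 7.88 and 12.9 FPKM in PBS replicates 1 to 5 and at 10.05, 24.8, 16.3, 14.9 and 15.6 FPKM in LPS replicates 1 to 5. Again LPS replicates 2 to 5 were above every PBS gland and LPS replicate 1 was not. The log2 change was 0.53 ± 0.20 with an adjusted p of 0.199 in limma, 0.167 in edgeR and 0.0952 in DESeq2.

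Msmo1, Nsdhl and Hsd17b7 act in turn to strip the methyl groups at the same carbon of the sterol ring. Msmo1 ranged from 10.6 to 14.0 FPKM in PBS glands (median 11.2) and from 12.6 to 27.5 FPKM in LPS glands (median 17.8), with a log2 change of 0.60 ± 0.17 and a limma adjusted p of 0.0822. Nsdhl was at 7.21 ± 0.984 and 10.9 ± 3.10 FPKM (log2 change 0.50, adjusted p = 0.119), and Hsd17b7 at 2.53 ± 0.941 and 4.51 ± 1.57 FPKM (log2 change 0.63, adjusted p = 0.142). Sc5d, the desaturase that follows, was at 21.6 ± 2.38 and 30.8 ± 6.58 FPKM (log2 change 0.47, adjusted p = 0.0849). Of these genes, Msmo1, Nsdhl and Sc5d had 4 LPS glands above every PBS gland, and Hsd17b7 had 3.

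Not every late enzyme followed this pattern. Ebp, the sterol isomerase, was at 22.3 ± 2.02 FPKM in PBS and 22.0 ± 1.75 FPKM in LPS glands, with a 95% interval of the log2 change from -0.21 to 0.18. Tm7sf2 and Lbr encode sterol reductases that can serve the same step, and Lbr also anchors chromatin at the nuclear envelope. Tm7sf2 was at 6.93 ± 1.04 and 6.22 ± 1.25 FPKM (log2 change -0.14), with 532 exon bases shared with Vps51 on the same strand. Lbr was at 6.50 ± 1.56 and 7.78 ± 1.74 FPKM (log2 change 0.23). Lss, which folds squalene epoxide into lanosterol between Sqle and Cyp51, was at 4.05 ± 1.56 and 4.43 ± 1.59 FPKM, a log2 change of 0.11 that was -0.06 with FPKM rescaled outside milk proteins. Dhcr7, the last reductase, was at 10.5 ± 3.14 and 13.9 ± 3.33 FPKM (log2 change 0.39, limma adjusted p = 0.333).

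Stard4, a soluble carrier that moves cholesterol between membranes and is itself a target of SREBP2, had the lowest limma adjusted p of all 28 genes tested. It was at 2.47, 4.31, 3.20, 2.74 and 3.58 FPKM in PBS replicates 1 to 5 and at 3.36, 9.37, 8.07, 5.18 and 6.32 FPKM in LPS replicates 1 to 5. LPS replicates 2 to 5 were above all PBS glands. The means were 3.26 ± 0.725 and 6.46 ± 2.36 FPKM, a ratio of 1.98 and a log2 change of 0.76 ± 0.21. The adjusted p was 0.0725 in limma, 0.0330 in edgeR and 0.00155 in DESeq2, and the authors' deposited table gives a log2 fold change of 0.758 with an adjusted p of 0.00122. It was the only 1 of the 28 genes that edgeR called.

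Of the 4 sterol sensor genes, Srebf2 and Insig1 were higher in LPS glands at an unadjusted limma p below 0.05 (all genes: 12.4%). Of the 4, 0 were called by limma, edgeR or DESeq2 (all genes called higher: 2.63%, 2.67% and 4.98%). Srebf2, the gene of SREBP2, was at 13.9, 19.8, 16.9, 14.0 and 16.4 FPKM in PBS replicates 1 to 5 and at 15.9, 24.8, 22.3, 20.8 and 21.5 FPKM in LPS replicates 1 to 5. LPS replicates 2 to 5 exceeded every PBS gland, and the log2 change was 0.36 ± 0.13 (limma adjusted p = 0.166). Scap, the SREBP escort, was at 17.1 ± 2.05 and 16.7 ± 0.905 FPKM (log2 change -0.03, 95% interval -0.23 to 0.17).

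Insig1 and Insig2 encode paralogous proteins that retain SCAP, and Insig1 is the SREBP target of the pair. Insig1 was at 17.8, 26.1, 17.9, 13.9 and 16.9 FPKM in PBS replicates 1 to 5 and at 20.6, 38.9, 42.0, 20.9 and 21.2 FPKM in LPS replicates 1 to 5. LPS replicates 2 and 3 stood above the rest, and the other LPS glands lay within the PBS range. The log2 change of Insig1 was 0.56 ± 0.22 (limma adjusted p = 0.220). Insig2 was at 11.7, 10.1, 9.19, 11.9 and 11.5 FPKM in PBS replicates 1 to 5 and at 13.0, 10.2, 11.4, 10.9 and 12.1 FPKM in LPS replicates 1 to 5, with a log2 change of 0.08 and a 95% interval from -0.13 to 0.29 (-0.12 with FPKM rescaled outside milk proteins). The groups of Insig2 overlapped, and its lowest LPS gland was replicate 2, where Insig1 was among the highest. The ratio of Insig1 to Insig2 FPKM within a gland was 1.17 to 2.58 in PBS glands and 1.58 to 3.81 in LPS glands, so it overlapped between the groups.

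**Figure D3:**
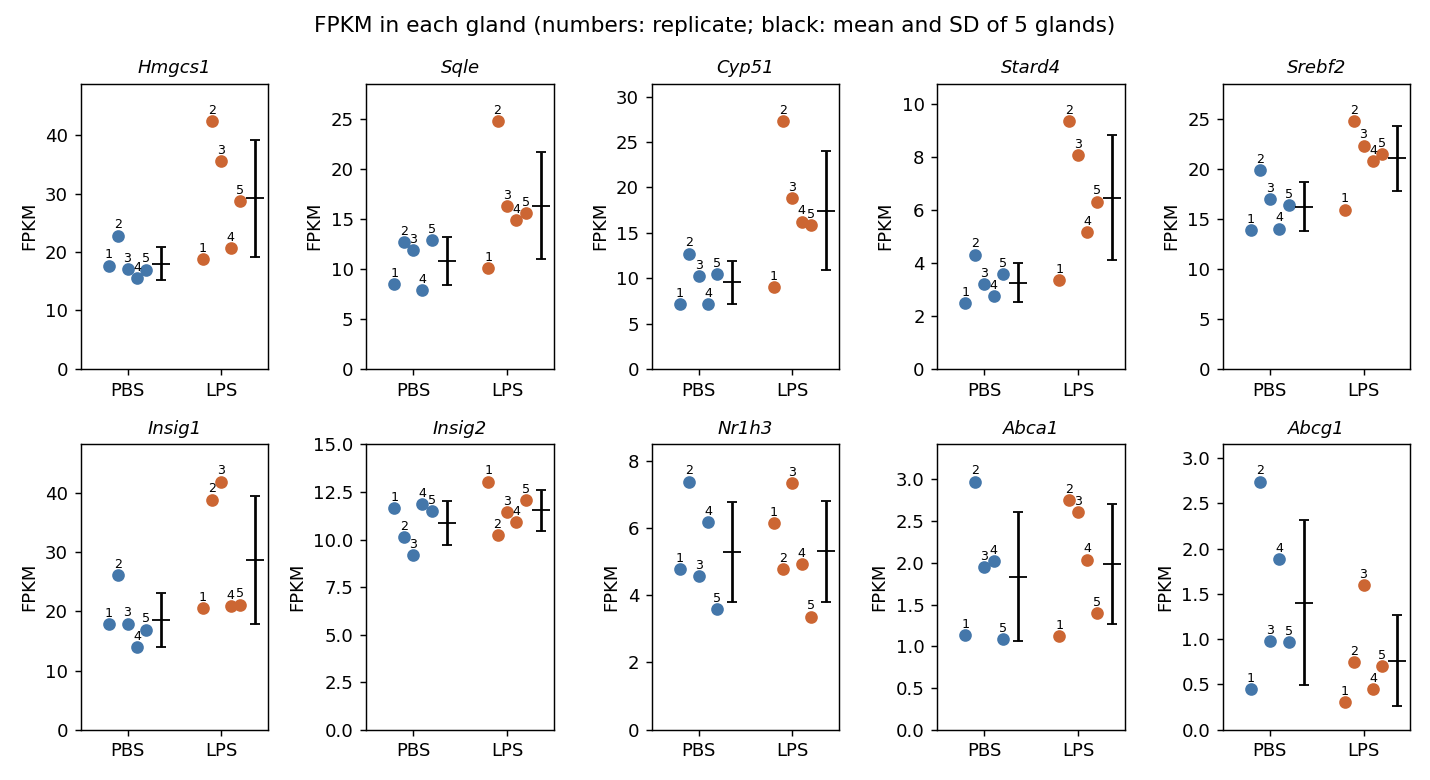
FPKM of 10 genes in each gland, with PBS glands in blue, LPS glands in orange and the replicate number beside each point. Black bars are means with SD over 5 glands. LPS replicates 2 and 3 are the highest glands for Hmgcs1, Cyp51, Stard4 and Insig1, and the groups of Nr1h3 and Abca1 overlap over nearly their whole range.

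The 3 tested genes of the LXR arm were Nr1h2, Nr1h3 and Abca1, and their values in LPS glands were close to those in PBS glands. Of these, 0 were called by limma, edgeR or DESeq2 (limma, all genes: 3.23% called). An unadjusted p below 0.05 in limma was reached by 0 (all genes: 12.4% higher and 4.07% lower). With 3 genes, counts of 0 do not set this arm apart from all genes. Their median log2 change was 0.00, which is the value of Nr1h3, against 0.47 for the synthesis genes and 0.05 for all genes tested. That median was -0.05 with median-of-ratios or quantile scaling and -0.18 with FPKM rescaled outside milk proteins. Nr1h2 and Nr1h3 are the receptor genes, so Abca1 (0.08) was the only export gene in that median. Of 8 other tested genes of LXR targets and oxysterol metabolism, 4 had a log2 change above 0, with a median of -0.04. Nr1h2, the LXR beta gene, was at 38.6, 48.0, 48.7, 44.6 and 38.5 FPKM in PBS replicates 1 to 5 and at 40.4, 42.6, 46.8, 43.0 and 38.3 FPKM in LPS replicates 1 to 5. All LPS values lay within or just below the PBS range. Nr1h3, the LXR alpha gene, was lower than Nr1h2 per length in every gland. It was at 4.76, 7.38, 4.56, 6.18 and 3.59 FPKM in PBS replicates 1 to 5 and at 6.14, 4.78, 7.34, 4.92 and 3.36 FPKM in LPS replicates 1 to 5, with a log2 change of 0.00 and a 95% interval from -0.41 to 0.41.

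Abca1, which loads cholesterol onto apolipoprotein A-I, was at 1.14, 2.97, 1.95, 2.02 and 1.08 FPKM in PBS replicates 1 to 5 and at 1.13, 2.76, 2.61, 2.04 and 1.40 FPKM in LPS replicates 1 to 5. The groups overlapped over nearly their whole range, and the 95% interval of the log2 change ran from -0.37 to 0.53 around a change of 0.08, which was -0.05 with FPKM rescaled outside milk proteins. Abcg1, which passes cholesterol to lipoprotein particles, did not pass the filter. It was at 0.444, 2.74, 0.983, 1.88 and 0.969 FPKM in PBS replicates 1 to 5 and at 0.308, 0.748, 1.60, 0.451 and 0.703 FPKM in LPS replicates 1 to 5, on 21 to 167 reads per gland. The means of Abcg1 were 1.40 ± 0.909 FPKM in PBS and 0.762 ± 0.503 FPKM in LPS glands, a ratio of 0.543, and the groups overlapped. Its highest values in either group fell in PBS replicates 2 and 4 and LPS replicate 3, which are also the glands highest in B and T cell transcripts.

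Mylip, the LXR target that lowers lipoprotein uptake, was at 8.96, 8.85, 7.76, 7.22 and 5.39 FPKM in PBS replicates 1 to 5 and at 6.44, 6.91, 6.72, 7.53 and 4.60 FPKM in LPS replicates 1 to 5. The groups overlapped, although all 5 LPS glands were below the PBS mean of 7.64 FPKM. The log2 change was -0.21 ± 0.14 (limma adjusted p = 0.524). It was the most negative change among the 28 genes tested.

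In all, 0 of the 28 tested genes had groups that did not overlap, where 4.75% of all genes tested did. A log2 change above 0.5 was found for 10 of the 28, namely 8 synthesis genes, Insig1 and Stard4, where 4.49% of all genes tested had one. The authors' deposited table lists 8 of the 29 genes, all higher in LPS glands (4.82% of all genes tested here are listed as higher), and DESeq2 on the recovered reads called the same 8. Those reads equalled the deposited counts for 907 of 908 listed genes, and the submitters name DESeq2 too, so the lists are not independent. The 8 genes are the 7 enzymes named above and Stard4. In that table Cyp51 lies on chromosome 5 from 4081145 to 4104746 (minus strand), Msmo1 on chromosome 8 from 64718139 to 64733792 (minus), Hmgcs1 on chromosome 13 from 119690462 to 119708086 (plus) and Nsdhl on chromosome X from 72918557 to 72958514 (plus), all protein-coding genes in build mm10. In the GENCODE annotation of that build Sqle spans 59315077 to 59331192 on chromosome 15 (plus), Srebf2 spans 82147181 to 82205379 on chromosome 15 (plus), Insig1 spans 28071363 to 28078662 on chromosome 5 (plus) and Abca1 spans 53030787 to 53159895 on chromosome 4 (minus).

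**Figure D4:**
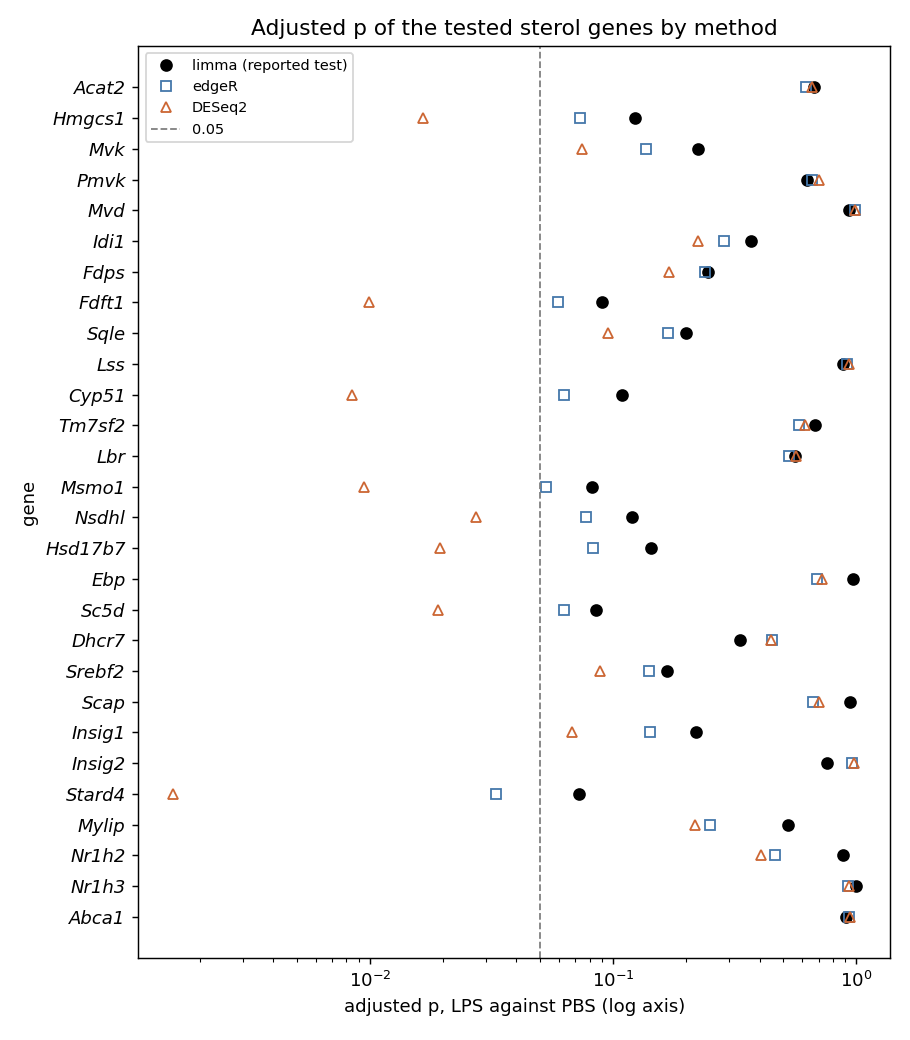
Adjusted p, on a log axis, of the 28 tested genes in limma (filled circles), edgeR (squares) and DESeq2 (triangles), with 0.05 as a dashed line. In limma 0 genes lie below 0.05, in edgeR Stard4 does, and in DESeq2 8 genes do.

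The same glands held the highest and lowest values for many synthesis genes. LPS replicate 2 was the highest of the 10 glands for 16 of the 19, against 18.9% of all genes tested, and PBS replicate 2 was the highest PBS gland for 15 of the 19, against 49.3%. LPS replicate 1 was the lowest LPS gland for 12 of the 19, against 32.3% of all genes tested. The median difference of the 19 genes from the PBS mean, on the log2(FPKM + 1) scale, was -0.20, 0.34, 0.02, -0.17 and -0.05 in PBS replicates 1 to 5 and 0.03, 0.90, 0.53, 0.26 and 0.36 in LPS replicates 1 to 5. LPS replicates 1 and 4 therefore lay within the PBS range, below PBS replicate 2. Without LPS replicate 1, limma called Hmgcs1, Fdft1, Cyp51, Msmo1, Nsdhl, Hsd17b7, Srebf2 and Stard4 higher (3.76% of all genes tested), and without LPS replicate 4 it called Sc5d.

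Markers of cell types moved with some of these values, and their part in them was not tested. PBS replicate 2 and LPS replicates 2 and 3, where the synthesis genes were high, were also among the 4 glands richest in B and T cell markers, while PBS replicate 4, the fourth, had low synthesis values. Without those 4 glands the median log2 change of the synthesis genes was 0.26, and that of Hmgcs1 0.35, with 0 of the 28 genes called by limma (all genes: 0.0701% called higher) and 5 higher at an unadjusted p below 0.05 (all genes: 7.26%). With the B and T cell score as a covariate the median was 0.56, and limma called Hmgcs1, Fdft1, Msmo1, Hsd17b7, Sc5d and Stard4 higher (5.71% of all genes tested). The summed FPKM of 6 neutrophil markers was 707 to 1869 in PBS and 7367 to 14189 in LPS glands, with 5 of 6 called higher by limma. S100a8 and S100a9 made up nearly all of this sum, with LPS means of 7386 and 3866 FPKM. The LPS means of Csf3r, Cxcr2, Retnlg and Mmp9 were 3.46 to 9.65 FPKM, against PBS means of 0.784 to 2.76 FPKM. Mmp9 was not called (limma adjusted p = 0.114), and Cxcr2 reached 1 FPKM only in the LPS glands and PBS replicate 2. The summed FPKM of 8 milk epithelium markers was 125078 to 159419 in PBS and 83603 to 114857 in LPS glands, with Krt8 called higher by limma. Csn2, Csn3, Wap and Lalba made up nearly all of this sum. Their PBS means were 4675 to 70887 FPKM, against 130 to 265 FPKM for the other markers. The log2 change was -0.62 to -0.34 in these milk protein genes and 0.53, 0.32, 0.08 and -0.07 in Krt8, Krt18, Epcam and Elf5. DESeq2 called Krt8 higher too, and Csn2 and Csn3 lower (adjusted p = 0.00308 and 0.0159), while edgeR called none of the 8. The 5 myoepithelium markers summed to 295 to 402 FPKM in PBS and 385 to 499.7 FPKM in LPS glands, all 5 with a log2 change above 0 (median 0.32) and Krt5 called higher by limma (adjusted p = 0.0163). The 10 milk protein genes took 38.7 to 50.0% of summed FPKM in PBS and 32.3 to 44.4% in LPS glands. The 7 macrophage markers summed to 43.7 to 128 FPKM in PBS and 34.3 to 80.5 FPKM in LPS glands, and the 6 adipocyte markers to 451 to 810.1 and 463 to 848 FPKM, with 0 called by limma or edgeR in either list. DESeq2 called the macrophage marker Csf1r lower (adjusted p = 0.0340). No marker of these lists was at 0 in all glands.

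Of 49 other genes of sterol and isoprenoid metabolism, 42 were tested, and limma called 1 higher and 0 lower (all genes: 2.63% and 0.605%). Their median log2 change was 0.07, and 26 of the 42 were above 0 (all genes: 61.4%), so both counts were near those of all genes. The called gene was Cyp7b1, a hydroxylase that clears oxysterols, the natural LXR ligands. It rose from 0.630 ± 0.252 FPKM in PBS to 1.66 ± 0.297 FPKM in LPS glands (log2 change 0.71 ± 0.13, limma adjusted p = 0.0157), and all LPS glands (1.20 to 1.96 FPKM) were above all PBS glands (0.411 to 1.04 FPKM), on 14 to 77 reads per gland. Cyp7b1 passed the filter through the LPS glands, since among PBS glands replicate 3 alone reached 1 FPKM. Cyp27a1 reached 1 FPKM in PBS replicates 2, 3 and 4 alone and was not tested. The filter thus bears on the split of 1 higher and 0 lower. Neither the 8 genes of the non-sterol isoprenoid branch, nor the 11 of SREBP processing and reductase turnover, nor the 10 tested genes of sterol transport and storage, nor the 5 of lipoprotein uptake held a gene called by limma or edgeR. DESeq2 called Pdss1 of the isoprenoid branch higher (adjusted p = 0.0458) and Aup1, of SREBP processing and reductase turnover, lower (adjusted p = 0.0490). Pdss1 also passed the filter through the LPS glands, since among PBS glands replicate 2 alone reached 1 FPKM. Srebf1, the related factor of fatty acid synthesis, averaged 18.5 ± 4.95 FPKM in PBS glands against 17.8 ± 3.47 FPKM in LPS glands (limma adjusted p = 0.957), and was named after its values were seen.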

How the data were processed

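RNA of 10 mammary glands (5 LPS, 5 PBS) was analysed from 2 deposited tables. The submitters' processing notes name build mm10 and the tools STAR 2.5, HTSeq 0.6.1 and DESeq2 (as version 2), and settings are not given in the sources used here. The authors deposited FPKM for 35275 genes. For 908 genes listed at their adjusted p-value below 0.05, they also deposited raw read counts, a size-factor normalized signal, log2 fold changes, p-values and gene lengths (other, in bases), per the file headers.

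Counts, lengths and FPKM of the listed genes gave the counted reads of each library, 15734303 to 18869545. Whole reads were then recovered for 23059 of 23059 genes above 0, within 0.002 reads. They equalled the deposited counts for 907 of 908 genes. FPKM of 1 read in 1 kb was 0.053 to 0.0636. Depth covers counting error only.

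Genes that reached 1 FPKM in 5 or more libraries were tested with limma 3.58.1 (R 4.3.3) on log2(FPKM + 1), with an intensity trend and group as the only term, two-sided, and called where the p adjusted by Benjamini-Hochberg was below 0.05. This scale understates changes of low genes. The same genes were tested on recovered reads by DESeq2 1.42.0 and by the quasi-likelihood test of edgeR 4.0.16. The limma procedure was also run on simulated data, and no result given here rests on that run. Members and lists were chosen with earlier results of these data known. All 29 genes could be named, with values per gland for Hmgcs1, Sqle, Stard4, Mylip and the control and LXR genes, and for Cyp51 after its values were seen. Called genes of the other lists were named. Gene IDs were named through an Ensembl symbol table, and exon overlaps from GENCODE annotation of the same build. Alternatives were other pseudocounts, filters and scalings, library weights, a replicate block, a B and T cell score as covariate, and leaving out libraries.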

Additional observations from a re-analysis of the deposited data

Results flagged for a closer look

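In 58 groups of 5 glands (29 genes, 2 treatments), 2 values stood apart from the others of their group by more than Dixon's critical gap of 0.71 of the range. They were Fdps in LPS replicate 2, at 79.7 FPKM, and Dhcr7 in LPS replicate 2, at 19.6 FPKM. Chance alone flags about 5% of groups.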

How the results depend on the processing

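In limma 0 of the 19 synthesis genes and 0 of the 9 other genes tested were called. The synthesis count became 10 with a replicate block, 5 with library weights, 7 in DESeq2 and 5 with the B and T cell score as covariate, and ran from 0 to 6 when single glands were left out. For the other genes it became 3 with the replicate block, 2 with library weights, 1 each in edgeR, in DESeq2 and with the covariate, and 0 to 2 with single glands left out. No setting called a gene of either set lower. Over all genes the 369 calls became 126 with no filter, 1229 with the replicate block, 656 with library weights, 846 in DESeq2, 8 without the 4 glands richest in B and T cell markers, 772 with the covariate, and 150 (without PBS replicate 4 or LPS replicate 2) to 517 (without LPS replicate 1).

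The labels do not tie replicate numbers to a mouse. Deviations of glands with the same number correlated at 0.482, 0.362, 0.099, 0.103 and 0.494 for numbers 1 to 5 over 11414 genes. The own number was the best match for 1, 2 and 5, and not for 3 and 4. These values do not settle whether glands with the same number share a mouse. The block is therefore given as an alternative only.

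Of 640 values of single genes under alternatives, 563 kept direction and side of the threshold, 44 passed it, and 33 turned sign, in Pmvk, Mvd, Lss, Ebp, Scap, Insig2, Nr1h3 and Abca1. The cause was not tested. FPKM rescaled outside milk proteins gave log2 changes of -0.012 for Pmvk, -0.15 for Mvd, -0.057 for Lss, -0.12 for Insig2, -0.18 for Nr1h3 and -0.050 for Abca1. Mvd was also at -0.0025 with median-of-ratios scaling, -0.015 with quantile normalization and -0.054 without the 4 glands, where Lss was at -0.077. Scap was at 0.041 with library weights. Nr1h3 was at -0.046 with median-of-ratios scaling, -0.054 with quantile normalization, -0.019 with library weights, -0.054 in edgeR and -0.055 in DESeq2. With single glands left out the range was -0.070 to 0.16 for Mvd, -0.024 to 0.25 for Lss, -0.051 to 0.025 for Ebp, -0.081 to 0.025 for Scap, -0.11 to 0.13 for Nr1h3 and -0.017 to 0.22 for Abca1. Depth limits Abcg1 most, with 21 to 167 reads per gland.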

Other observations

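The oxysterol genes Ch25h and Cyp27a1, which did not pass the filter, gave values in both directions. Pdss1, a tested gene of the isoprenoid branch, is listed with them. All were named after their values were seen. Ch25h, which makes the oxysterol that CYP7B1 clears and is induced in activated myeloid cells, was at 0.041 to 1.10 FPKM in PBS and 0.557 to 1.66 FPKM in LPS glands, on 1 to 38 reads per gland. Cyp27a1, the sterol hydroxylase of mitochondria, was at 0.627 to 2.32 FPKM in PBS and 0.420 to 0.894 FPKM in LPS glands, and the authors' deposited table lists it with a log2 fold change of -0.724 and an adjusted p of 0.0303. Pdss1, which builds the isoprenoid tail of coenzyme Q, was at 0.833 to 1.25 FPKM in PBS and 1.25 to 1.96 FPKM in LPS glands (limma adjusted p = 0.0834), and the same authors' deposited table gives a log2 fold change of 0.559 with an adjusted p of 0.0431.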
